A study of Homo sapiens with 2 samples.

Results

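IL13RA2, one of the genes with the lowest log2 ratios on these arrays, was examined together with the other chains of the interleukin-4 and interleukin-13 receptors, IL13RA1, IL4R and IL2RG, and with STAT6, the transcription factor these receptors activate. Every probe set annotated to 1 of these 5 genes was taken, 9 of the 54675 on each array: 4 for IL13RA1, 2 for STAT6, and 1 each for IL13RA2, IL4R and IL2RG. The set was selected on the log2 ratio of IL13RA2 between these same arrays, so its values are a description, with no test. The arrays compare 2 stable transfectants of MDA-MB 231, a highly invasive human breast cancer line without estrogen receptor. In both, cells carried the plasmid pIRES2-EGFP; in the S100A7 cells it also held S100A7, a calcium-binding protein of inflamed skin also called psoriasin, and in the vector cells it held no insert. Each group is 1 array, so no value below could be set against a spread between cultures. Whether the stable cells came from 1 clone or from a pool is not given in the sources used here, and the confluence at harvest is given for the vector cells only.

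Interleukin-4 and interleukin-13 are cytokines of type 2 immunity that act on epithelial and tumour cells as well as on leukocytes. The IL4R chain pairs with IL2RG, the common gamma chain of blood cells, to bind interleukin-4 (the type I receptor), or with IL13RA1 to bind either cytokine (the type II receptor, the usual form outside the blood lineage). Both pass the signal through JAK kinases to STAT6. IL13RA2 binds interleukin-13 tightly, has a short cytoplasmic tail without JAK docking, and is best known as a decoy, although signalling through it has been described. It is counted among the cancer-testis antigens and is found in glioblastoma and other tumours.

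Values are MAS5 intensities on a linear scale, 1 per probe set, and reflect both the amount of transcript and how well its probes bind, so that only the 2 arrays, not different probe sets, are compared. Each array's 50th percentile, 71.0 for vector and 69.0 for S100A7, served as a floor: a probe set counted as measured when either array reached its floor, and lower values were raised to it before a ratio was taken. S100A7 itself read 11.99 (vector) and 13232 (S100A7), in accord with the labels. Of markers of the line, all of VIM, CD44, EGFR, AXL and MSN were measured, and neither array reached its floor for ESR1, PGR, CDH1 or KRT20. All 9 member probe sets were measured, and 8 of them reached the floor on both arrays.

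The decoy receptor gene IL13RA2 was far lower in the S100A7 cells. Its probe set, 206172_at, read 6615 (vector) and 119 (S100A7), or 93.1 times the floor of the first array and 1.72 times that of the second. The S100A7 array was thus the low one, by 55.8-fold (log2 ratio -5.80), and what remained lay only slightly above the floor. The gene lies on chromosome X at positions 115003982 to 115017616 (GRCh38.p14). Its 1 probe set leaves no second reading of the gene on these arrays. As a yardstick, log2 ratios of probe sets of the same gene differed with a pooled standard deviation of 0.36 over 6465 genes; this yardstick holds no spread between cultures. In RNA from a whole culture, a lower level in each cell and fewer cells with the transcript cannot be told apart.

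**Figure D1:**
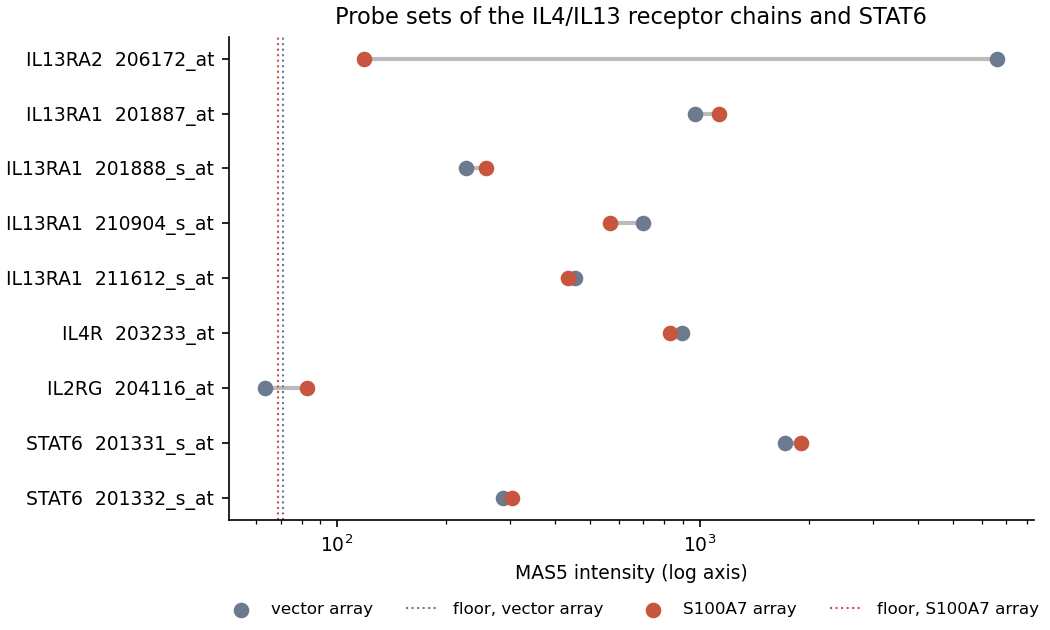
MAS5 intensity (log axis) of each of the 9 probe sets on both arrays, joined by a line, with each array's floor dotted. IL13RA2 runs from 6615 down to 119, while the points of the other 8 probe sets lie close together and IL2RG lies at the floors.

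IL13RA1, the signalling chain that binds interleukin-13 in the type II receptor, was about level. Its brightest probe set, 201887_at, read 973 (vector) and 1129 (S100A7), a log2 ratio of 0.21. The probe set 201888_s_at read 227 and 258 (0.18), 211612_s_at read 453 and 434 (-0.06), and 210904_s_at read 700.4 and 566 (-0.31). So 2 probe sets were higher and 2 lower in the S100A7 array, with a median log2 ratio of 0.06. They spanned 0.52 on the log2 scale, against a median span of 0.62 over the 781 genes with 4 measured probe sets. The gene lies on chromosome X at 118727606 to 118805228, 3.71 Mb from IL13RA2.

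IL4R, the chain shared by the type I and type II receptors, read 893 (vector) and 828 (S100A7) on its 1 probe set, 203233_at, a log2 ratio of -0.11. The arrays were close for this chain. IL4R lies on chromosome 16 at 27313756 to 27364778, and its 40 nearest measured neighbours had a median log2 ratio of -0.24, so that its ratio relative to them was 0.13. No direction was therefore read for IL4R.

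IL2RG, the common gamma chain that completes the type I receptor in blood cells, was at the floor. Its probe set, 204116_at, read 63.5 (vector, short of the floor) and 82.6 (S100A7, 1.20 times the floor). The log2 ratio was at least 0.22, and 0.38 without a floor. Leukocyte markers were mostly low as well: of 12 with a probe set, 4 were measured (ITGB2, CD53, LAPTM5 and FCER1G), while PTPRC, CD3E, MS4A1, CD14, LYZ, TYROBP, CD52 and NKG7 reached neither floor. The sum of the 12 markers' highest probe sets was 3326 (vector) and 4719 (S100A7), and 763 and 671 without LAPTM5. Their part in the IL2RG value was not tested.

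The sequences before the gene start of IL13RA1, a chain well above the floor, and of IL2RG, the chain at the floor, differ in kind. They are shown for that reason. Both are the 250 bases before the RefSeq start on GRCh38.p14, printed 5′ to 3′ on the gene's strand, with each CpG dinucleotide in capitals; IL13RA1 is chrX:118727356-118727605 on the plus strand and IL2RG is chrX:71111578-71111827 on the minus strand.
IL13RA1: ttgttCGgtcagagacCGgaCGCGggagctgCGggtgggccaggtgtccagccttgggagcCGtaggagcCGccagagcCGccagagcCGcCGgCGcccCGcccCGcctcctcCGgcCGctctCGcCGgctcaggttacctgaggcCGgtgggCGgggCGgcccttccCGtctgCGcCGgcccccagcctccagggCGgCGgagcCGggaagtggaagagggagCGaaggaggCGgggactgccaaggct
IL2RG: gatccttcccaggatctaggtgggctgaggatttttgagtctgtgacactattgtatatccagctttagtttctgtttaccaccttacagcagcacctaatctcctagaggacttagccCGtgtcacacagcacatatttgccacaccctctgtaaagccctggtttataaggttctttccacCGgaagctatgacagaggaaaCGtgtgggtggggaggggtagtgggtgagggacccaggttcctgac
The IL13RA1 stretch holds 28 CpG and is 75.6% G or C, and the IL2RG stretch holds 3 and is 50% G or C. The IL4R window, chr16:27313724-27313973 on the plus strand, holds 35 CpG, but most of it lies past the gene start given above. The STAT6 window, chr12:57110290-57110539 on the minus strand, holds 11, but lies wholly inside the gene, which spans 57095408 to 57111362. These windows therefore do not directly precede the gene's outer start, unlike those of IL13RA1 and IL2RG. The median count was 11 over 35116 promoters of this length. The STAT6 binding motif TTCNNNNGAA, which reads the same on both strands, is in 5.38% of the 35116 promoters. It is in 0 of the 4 member promoters that the table holds, and also in 0 of 25 promoters of STAT6 target genes. Nothing is read from its absence in the members. This is a description of the letters in these windows only. A link between CpG count and intensity was not tested, and STAT6, at 24.2 times the vector array's floor, has the median count. IL13RA2 has no entry in the table.

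STAT6, the transcription factor that the receptor's kinases phosphorylate, was near level too. Its probe set 201331_s_at read 1716 (vector) and 1908 (S100A7), a log2 ratio of 0.15, and 201332_s_at read 286 and 303 (0.08). Both were slightly higher in the S100A7 array, by less than the standard deviation of 0.36 between probe sets of a gene. STAT6 lies on chromosome 12 at 57095408 to 57111362. The arrays measure its transcript, not its phosphorylation.

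Set among all genes, IL13RA2 stood apart from the other members. A gene, read by the brightest of its measured probe sets, was called when its arrays differed by 2-fold or more. Of the 5 member genes 1 was called lower and 0 higher. Of the 12688 genes measured, 2.25% were called lower and 1.80% higher; the share among the members follows from their choice and nothing is read from it. With values raised to the floor, IL13RA2 had the lowest log2 ratio of the 12688, at -5.80. The next, FGF13, was at -5.16, a bound set by the floor, and with no floor it was at -6.95, below IL13RA2. At this floor 21 genes were at least 4-fold lower, 6 at least 8-fold and 2 at least 16-fold, IL13RA2 and FGF13. These counts are minimum numbers where a ratio is a bound: MAGEA6, for example, was at -3.70 with the floor and at -5.38 without it. The 4 other members had log2 ratios from -0.11 to 0.22, and 40.4% of all genes lay within 0.22 of 0, so these members sat in the middle of the distribution, whose median was -0.04.

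**Figure D2:**
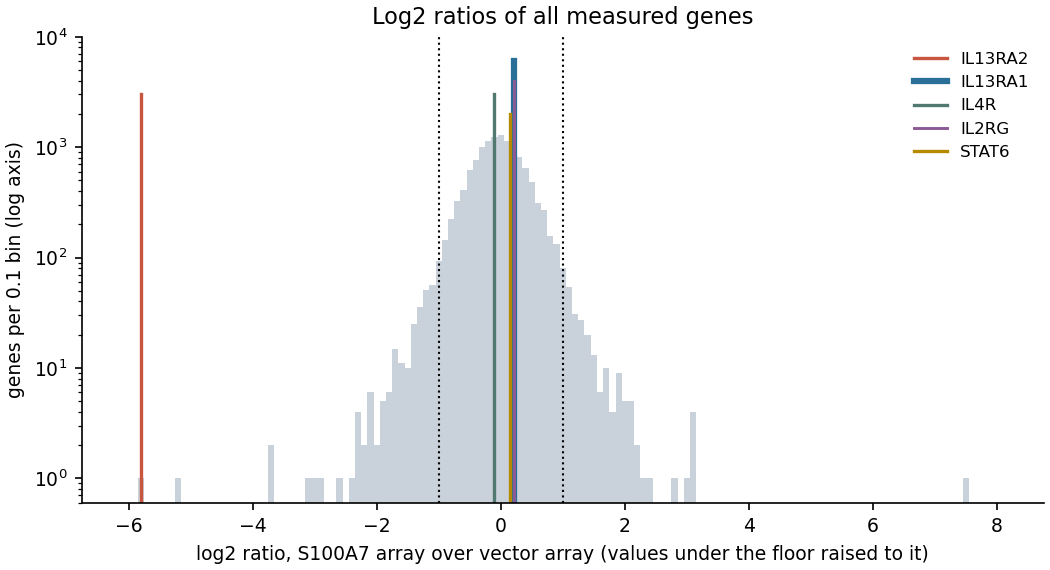
Number of measured genes per bin of log2 ratio, S100A7 array over vector array, on a log axis for all 12688 genes, with coloured lines (of no meaning in height) at the 5 members and dotted lines at 2-fold. IL13RA2 is at the far left at -5.80, and the other 4 lines lie between -0.11 and 0.22.

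Genes around the receptors were described from 9 lists with 102 different genes, of which 64 were measured, 31 were below the floor on both arrays and 7 are not analysed here. Of the 64, 2 passed 2-fold upward and 2 downward, or 3.12% each, beside 1.80% and 2.25% of all genes, and their median log2 ratio was 0.00. Among the ligands, IL13 read 82.1 (vector) and 106 (S100A7), just above the floor (log2 ratio 0.37), and IL4 did not reach the floor on either array. CHI3L1, a chitinase-like protein described as another ligand of IL13RA2, was below the floor as well. TMEM219, its partner membrane protein, was level at 2158 and 2218 (0.04).

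The kinases and adaptors next to the receptor chains gave 0 of 9 measured genes past 2-fold in either direction, with a median log2 ratio of -0.01. The kinases, named here for their role after their values were seen, were JAK1 (0.13, its other probe sets at -0.12 and -0.08), TYK2 (-0.17), JAK3 (0.00) and JAK2 (-0.70). JAK2 was the lowest of the 9, at 188 (vector) and 116 (S100A7), with its other measured probe set also lower (124 and 31.3, the second below the floor). Of the adaptors, SHC1 had a log2 ratio of 0.32, with its other probe set at -0.09, and GRB2 was at -0.01. IRS2, a docking protein of IL4R, was at -0.25, with its other probe set at -0.43. IRS1, named here after its values were seen, was the highest of the 9 at 0.60, with its other probe sets at 0.58 and 0.04.

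Inhibitors of the pathway were all measured, 11 of 11, and SOCS2 was the 1 gene past 2-fold. SOCS2, a suppressor of cytokine signalling that acts mainly on growth hormone signalling, read 288 (vector) and 118 (S100A7), 2.43-fold lower. Its other measured probe set read 95.5 and 45.7, at least 1.38-fold lower, and SOCS2 was no longer past 2-fold with the median over probe sets (log2 ratio -0.88) or with the floor at the 70th percentile (-0.02), which lies close to its vector value. The list's median was -0.14. The bright members STUB1 (0.06), a ubiquitin ligase, and the phosphatase genes PTPN11 (0.18) and PTPN1 (-0.14) were close to level on their brightest probe sets. Another PTPN1 probe set, 217686_at, read 261 (vector) and 99.6 (S100A7), 2.62-fold lower, and 239526_x_at was at -0.19. For PTPN11, the dimmer 205867_at read 113 and 203 (0.84).

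SOCS1 and CISH, feedback inhibitors that cytokines of this kind induce, gave probe sets that disagreed; both were named after their values were seen. SOCS1 read 49.4 (vector) and 97.6 (S100A7) on 210001_s_at, but 93.6 and 46.4 on 213337_s_at. CISH read 112 and 16.2 on 223377_x_at, but 52.5 and 99.8 on 221223_x_at. All of these values lay near or under the floor, and no direction was read for either gene. SOCS3, also named after its values were seen, disagreed above the floor. It read 239.8 (vector) and 106.2 (S100A7) on 206359_at (-1.18), but 527.5 and 769.3 on 227697_at (0.54). On 206360_s_at SOCS3 was at 0.22, and no direction was read for it.

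The other STAT genes lay between 0.01 and 0.68. STAT3, which carries signals of the interleukin-6 family, read 3558 (vector) and 5688 (S100A7), a log2 ratio of 0.68, with its 3 other probe sets at 0.56, 0.45 and -0.10. STAT5A (0.08) and STAT5B (0.01) were level, and 0 of the 4 measured were past 2-fold, with a median of 0.25. Among 4 co-activators of STAT6 the median was -0.35 with 0 past 2-fold: NCOA1 -0.52, SND1 -0.45 and CREBBP -0.25. The fourth, EP300, named after its values were seen, was at 0.10, with its other probe set at -0.02. NCOA1 depended on the probe set, since its other 3 ranged from -0.38 to 0.63.

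Genes known as STAT6 targets were mostly not detected above the floor. Of 24 listed, 16 were below the floor on both arrays, among them, named for their role, CCL26 and CCL17, chemokines that interleukin-4 and interleukin-13 induce, and the matrix gene POSTN. Of the 7 measured, 0 were past 2-fold, and their median log2 ratio was 0.06. The count depended on the floor: with it at the 30th percentile 19 were measured, of which CCL11 was past 2-fold higher and CCL24 and CST1 lower, and with no floor CCL11 was higher and CST1 lower among the 7. TGM2, tissue transglutaminase, read 6876 (vector) and 6778 (S100A7) on its brightest probe set (-0.02), while its other 3 ranged from -1.25 to -0.64. BCL6, a transcriptional repressor, was at 0.29 on its brightest probe set, but its others were at -0.18 and -0.10. GATA3, a transcription factor of luminal breast cells and type 2 lymphocytes, was at 0.06 on its brightest probe set. Its others were at -0.15 and -0.71, the latter with an S100A7 value below the floor. No direction was read for either gene.

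Genes described downstream of IL13RA2 went both ways. Among 12 measured of the 14 listed, 2 passed 2-fold upward and 0 downward, beside 1.80% and 2.25% of all genes, 5 were above 0 and 7 below, and the median log2 ratio was -0.11. The higher ones were the collagenase gene MMP1 (291 (vector) and 988 (S100A7)) and the gelatinase gene MMP9 (136 and 453). Any part of IL13RA2 in these 2 values was not tested. FAM120A, an RNA-binding protein reported to bind IL13RA2, read 15997 and 15172 (-0.08), and JUN, part of the AP-1 factor, was at -0.19. MMP14, a membrane-bound protease named after its values were seen, was lower on all 4 probe sets, from -0.39 to -0.77, and within 2-fold on each. YES1, also named after its values were seen, was higher, at 2736 and 4109 (0.59) and at 0.83 on its other measured probe set. TGFB1, a growth factor reported to be induced through IL13RA2 and named here after its value was seen, read 1764 and 940.5 (-0.91) on its brightest probe set and 80.8 and 126 (0.64) on the other. MMP9 was past 2-fold under the settings that kept its probe set, apart from the floor at the 70th percentile, where its log2 ratio was 0.68.

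Receptor chains that share IL2RG, or belong to the same structural class, lay mostly within 2-fold. Of 7 partners of the gamma chain 3 were measured and 0 were past 2-fold, with a median of 0.27. IL7R, the interleukin-7 receptor, came closest, at 196 (vector) and 392 (S100A7) on one probe set and 166 and 331 on the other, log2 ratios that both round to 1.00 and lie just under 2-fold. IL15RA was at 0.27 and IL2RB at -0.39. Of 14 other type I cytokine receptor genes measured among 23 listed, 0 were past 2-fold higher and 1 lower, with a median of -0.22. That gene was LIFR, the leukemia inhibitory factor receptor, at 524 and 258 (-1.02), but its other measured probe sets were at -0.35 and 0.47, and with the median over probe sets it was at -0.35. With no floor 3 of the 14 were past 2-fold lower, CSF3R and PRLR beside LIFR. The receptor subunits IL6ST (0.42), OSMR (0.12) and CRLF3 (0.05) were within 2-fold.

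**Figure D3:**
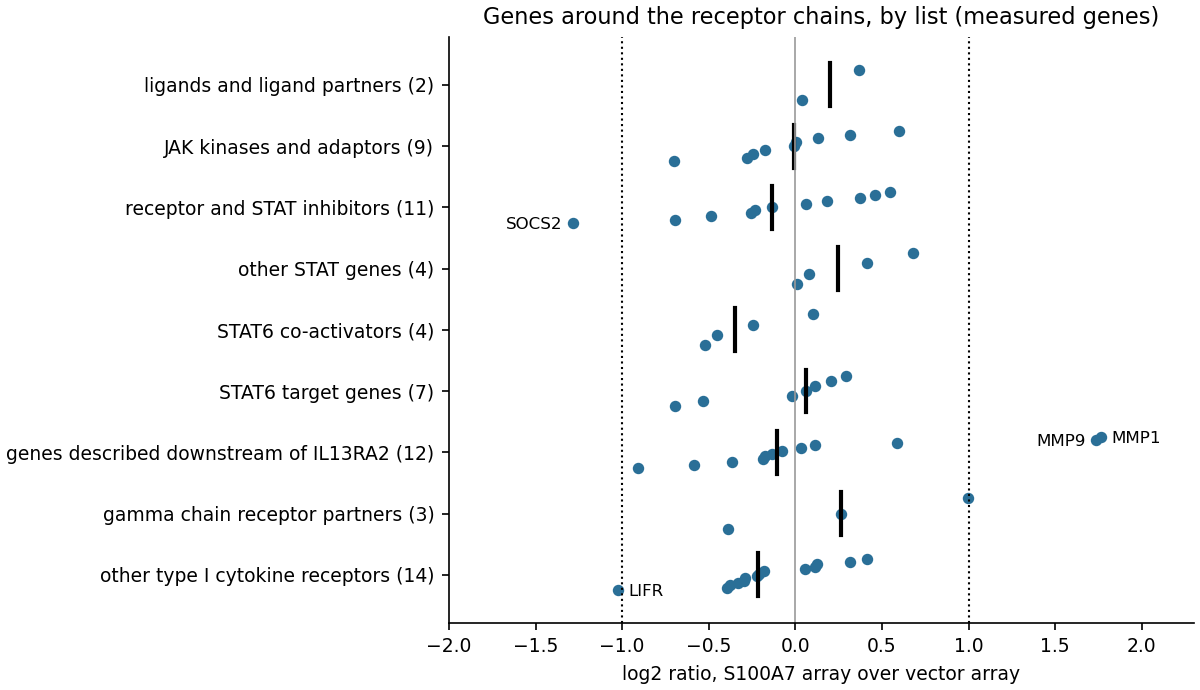
Log2 ratio, S100A7 array over vector array, of each measured gene in 9 lists around the receptor chains, with the number measured in parentheses, the list's median as a black bar and dotted lines at 2-fold. Most points lie within 2-fold; MMP1 and MMP9 lie above it, and SOCS2 and LIFR below.

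The genes whose pattern was most like that of IL13RA2, by the log2 ratio over these 2 arrays, were the next 5 lowest. FGF13, an intracellular member of the fibroblast growth factor family, read 2461 (vector) and 19.9 (S100A7, short of the floor), and the cancer-testis antigen gene MAGEA6 read 895 and 21.5. HBE1, embryonic globin, read 880 and 57.1, and FAM133A read 603 and 59.1, with its other probe set at 599.9 and 2.81. NEO1, the netrin receptor neogenin, read 1242 and 153, with another at 699 and 170.4. By this choice the S100A7 array was the low one in these 5, as in IL13RA2. FGF13, MAGEA6, HBE1 and FAM133A ended below the floor, so their ratios of -5.16, -3.70, -3.67 and -3.13 are bounds, while NEO1 was at -3.02. IL13RA2 had the lowest ratio under 6 of 9 alternative settings, and FGF13 had it in the other 3, which lowered or removed the floor or replaced it by a pseudocount. FGF13, MAGEA6 and FAM133A lie on chromosome X, as IL13RA2 does.

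Most genes beside IL13RA2 were near level. Over the 10 measured genes on each side, the median log2 ratio was -0.06, with 9 above 0, and 1 gene passed 2-fold, downward. The nearest measured gene, PLS3, which encodes plastin-3, an actin-bundling protein, lies 0.544 Mb away and read 7186 (vector) and 6874 (S100A7), a log2 ratio of -0.06. On the other side ALG13, an enzyme of protein glycosylation 3.24 Mb away, read 1017 and 497.6 (-1.03), but was at -0.45 with the median over its 4 probe sets. Between these neighbours, 7 genes (8 probe sets in all) reached neither floor: TRPC5, TRPC5OS, LHFPL1, AMOT, HTR2C, LRCH2 and LUZP4. IRS4, an insulin receptor substrate, was the highest of the 20, at 77.4 and 154 (0.99). The ratio of IL13RA2 relative to its 40 nearest measured genes was -5.74.

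**Figure D4:**
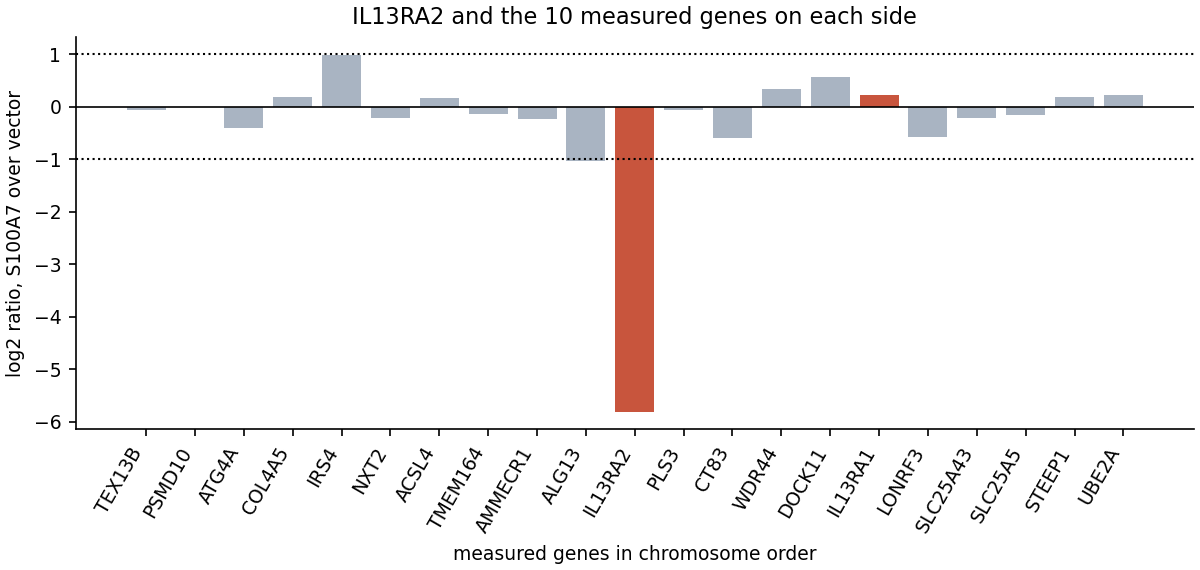
Log2 ratio, S100A7 array over vector array, of IL13RA2 and the 10 measured genes on each side of it in chromosome order, with IL13RA2 and IL13RA1 in red and dotted lines at 2-fold. IL13RA2 reaches -5.80, and the 20 others lie between -1.03 and 0.99.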

How the data were processed

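Total RNA from 2 samples was hybridised to 1 expression array each. The authors deposited 1 intensity per probe set, made with MAS5 per the submitters' processing notes; no source used here gives its version, scaling target or detection calls. Means after trimming 2% at each end were 500.1 on both arrays, so values were used as deposited. Probe sets were named through the platform annotation, with 41091 listing 1 gene, and 41037 were matched to RefSeq (GRCh38.p14) by Entrez identifier. A gene took its brightest measured probe set, by mean log2 intensity after the floor. With 1 array per group there is no test, and the number of arrays limits the precision. The members and lists were chosen with earlier results of these data known. Named from each list were genes past 2-fold and up to 3 others of highest intensity; also the 5 lowest genes beside IL13RA2 and its 10 neighbours on each side. The counting step was tested on simulated data, with folds placed only on genes well above the floor. Recovery of folds near the floor was not tested. Python 3.11.15, pandas 2.3.3 and numpy 2.4.6 were used.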

Additional observations from a re-analysis of the deposited data

How the results depend on the processing

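The alternatives were median centring, quantile normalization, a floor at the 30th or the 70th percentile, no floor, 32 added to each value in its stead, the median over probe sets, leaving out _x_at and _s_at probe sets, no filter on low values, and subtraction of the median of 40 chromosomal neighbours. The log2 ratio of IL13RA2 ran from -5.82 to -4.55, the latter with the floor at the 70th percentile, which lies above its S100A7 value. IL13RA1 ran from 0.06 to 0.30, IL4R from -0.13 to 0.13, STAT6 from 0.12 to 0.16 and IL2RG from 0.20 to 0.38. IL2RG was not measured with the floor at the 70th percentile, and STAT6 has _s_at probe sets only. All 81 list medians moved by less than 0.36, while counts past 2-fold within lists changed with the floor. Since 0.36 exceeds the size of every reported list median, a median could change sign within it. Medians ran from -0.16 to 0.06 for the inhibitors, -0.15 to 0.07 for STAT6 targets and -0.15 to 0.03 downstream of IL13RA2. They ran from -0.05 to 0.37 for gamma chain partners, -0.25 to 0.09 for other type I receptors and -0.002 to 0.36 for ligands. No direction was read for these lists. The remaining lists kept their sign under these settings, at -0.37 to -0.25 for STAT6 co-activators and 0.08 to 0.25 for other STAT genes. For kinases and adaptors the medians ran from -0.08 to -0.0009. Genes called higher and lower numbered 679 and 979 with the floor at the 30th percentile, 99 and 88 at the 70th, 506 and 682 with no floor, 1030 and 1275 at 1.5-fold, and 47 and 55 at 3-fold. Settings for chromosome X and for genes outside the members were added after seeing the data; of 624 such values 561 moved by less than 0.36, or by less than 1.5 times for counts, and 0 turned the sign of a called gene. No paired analysis was possible because each group has 1 array.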

Other observations

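IL13RA2 was 1 of 26 chromosome X genes at least 2-fold lower in the S100A7 array, among 394 measured there (6.60%), while 1 was at least 2-fold higher (0.254%), the tight-junction gene CLDN2. On the other chromosomes, 259 of 12279 genes were at least 2-fold lower (2.11%) and 227 higher (1.85%). The median log2 ratio was -0.16 on chromosome X and -0.04 elsewhere. The share lower was above that of the other chromosomes under each of 9 settings, with 10 genes lower on chromosome X at the floor of the 70th percentile (3.69% against 0.896%) and 52 at that of the 30th (9.20% against 5.71%). This comparison was made after the values were seen, and no test was run. Of the 13 measured chromosome X genes named MAGE, SSX, SPANX or XAGE, 4 families picked after their values were seen, 7 were at least 2-fold lower and 0 at least 2-fold higher, and 6 lay within 2-fold. The 7 were MAGEA6, SSX1 (log2 ratio -2.89), SSX3 (-1.80), MAGEA12 (-1.74), SPANXB1 (-1.16), XAGE2 (-1.06) and MAGED1 (-1.01). IL13RA1 and IL2RG, also on chromosome X, were at 0.21 and 0.22.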
